A study of Mus musculus with 6 samples.

Results

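The ubiquitin-conjugating enzymes, or E2 enzymes, were followed in whole blood of mice under food restriction (FR). They were all genes whose symbol begins with Ube2 and a further letter, as named from the RefSeq accession of each array probe. The rule took 33 of the 16535 gene symbols measured, on 75 probes, and each gene is represented by its brightest probe that could be tested. One of the 33, Ube2cbp, matched by name only and is not itself an E2 enzyme. Of the 33 genes, 25 had a probe that could be tested (7906 named genes could in all), and 8 did not.

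All animals were male C57BL/6J mice, an inbred strain, 9 weeks old. The control group received a normal diet and the FR group 50% food restriction for 2 weeks, with 8 mice in each group, and blood was drawn from the right ventricle of the heart. RNA was pooled within each group, so that pool 1 held mice 1 to 8, pool 2 mice 1 to 4 and pool 3 mice 5 to 8. FR and control RNA of a pool lay together on a two-colour Agilent array, once with FR in the red dye Cy5 and once with FR in the green dye Cy3, which gave 6 arrays. Pools 2 and 3 have no mouse in common and are the 2 replicates of each test, while pool 1 measured the same mice again on another slide and is given beside them. A pool gives 1 value for several mice, so the spread between single mice was not measured.

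Ubiquitin is attached to proteins in a relay: an E1 enzyme activates it, an E2 enzyme carries it on a cysteine, and an E3 ligase brings the loaded E2 to the target. The E2 often decides which kind of chain is built, and some E2 enzymes carry related modifiers (SUMO, NEDD8 or ISG15) in place of ubiquitin. Maturing red cells, the most abundant source of RNA in blood, use this system to clear ribosomes, organelles and unpaired proteins.

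On the 6 arrays 37.2% to 62.1% of spots were called well above background by the scanner software for control RNA and 20.4% to 55.6% for FR RNA, and no spot was saturated. The lowest FR share, 20.4%, was on the pool 3 array with FR in Cy3, which also correlated least with the mean of the other arrays (0.823 across features). Whole blood is a mixture, and fewer cells of a type cannot be told apart from less RNA per cell. All 23 tested erythroid markers, Hba-a1 and Alas2 among them, were above background for FR on all 4 arrays of pools 2 and 3, and 5 of them were higher and 3 lower in FR, with a summed signal of 689569 to 1080514 in control and 709903 to 1138388 in FR. Leukocyte and platelet markers moved further: lower in FR were 11 of 13 tested B cell markers (summed signal 10338 to 17003 in control and 2096 to 2843 in FR), 9 of 10 monocyte markers (33039 to 57075 and 4662 to 6428) and 10 of 12 platelet markers (95535 to 113110 and 42888 to 46501). Also lower were 3 of 10 T cell markers (4531 to 4855 and 3349 to 3454), 4 of 6 NK cell markers (1151 to 1580 and 538 to 744) and 3 of 9 neutrophil markers, with 1 higher (11397 to 25267 and 10029 to 11603). Among all features 24.5% were lower and 3.74% higher. The part of these cell types in the E2 results below was not tested.

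Of the 25 tested E2 genes, 2 were higher in FR (Ube2j1 and Ube2n), 7 were lower (Ube2a, Ube2c, Ube2d2a, Ube2e1, Ube2f and Ube2s among them) and 16 did not pass an adjusted p of 0.05 (limma, Benjamini-Hochberg over 11499 features). That was 8% higher and 28% lower, beside 3.74% higher and 24.5% lower among all features and 3.25% and 28.2% among named genes, so the family's share of lower calls lay near the background. The median log2 ratio of FR over control was -0.16 for the family and 0.01 for all features. Of the 25, 7 entered the test through their control signal alone (Ube2a, Ube2d2a, Ube2e1, Ube2g1, Ube2n, Ube2q1 and Ube2q2). Among the 18 above background in both groups on all 4 arrays, 1 was higher and 4 were lower, and of all such features 5.22% were higher and 18.3% lower. When the variance was moderated with the finite prior that all 3 pools gave, the family had 1 higher (Ube2j1) and 5 lower calls (1.53% and 15.5% of all features), without Ube2a, Ube2c and Ube2n. When the signals of the 2 groups were fitted as separate channels and not as ratios within the array, only Ube2j1 (higher) and Ube2e1 (lower) of the family passed (1.01% and 8.56% of all features). With pool 1 in place of pool 3, 3 E2 genes were higher and 15 lower (15.0% and 36.2% of all features), and pool 1 shares its mice with pool 2.

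**Figure D1:**
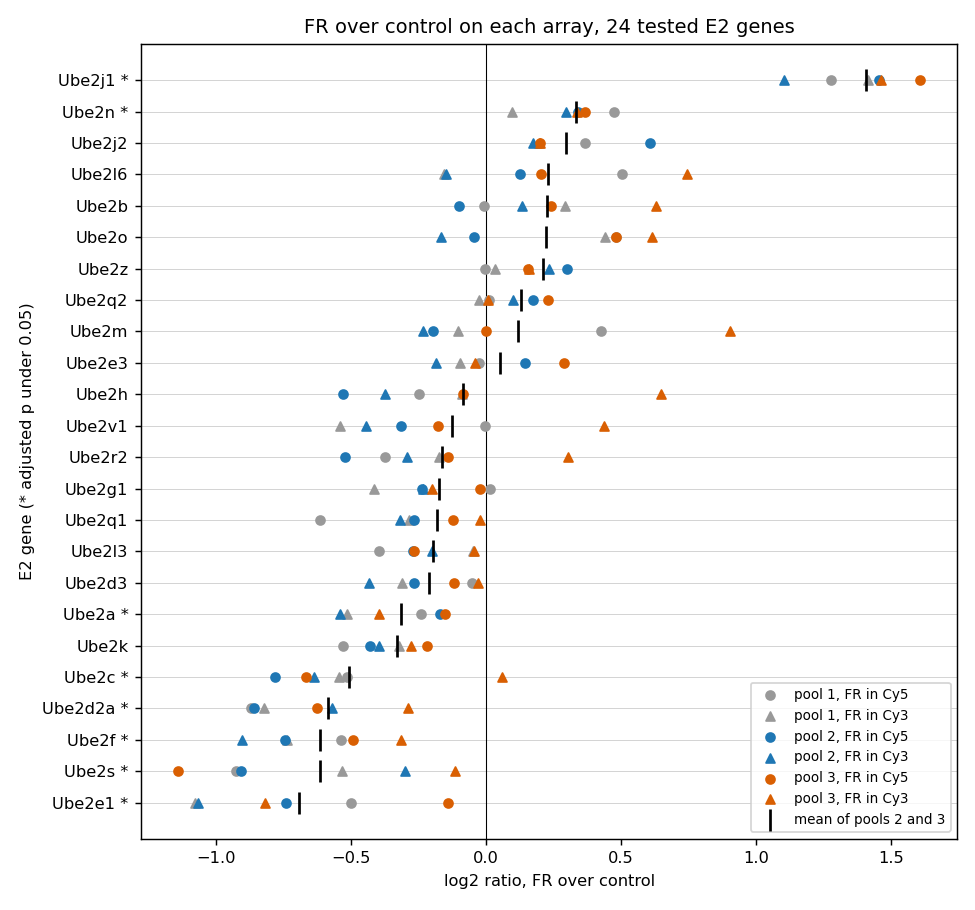
The log2 ratio of FR over control is plotted on the horizontal axis for 24 tested E2 genes, one point for each of the 6 arrays, with pools by colour, dyes by shape and a bar at the mean of pools 2 and 3. Ube2j1 stands apart on the right at 1.1 to 1.61 on every array, and the genes marked as lower lie at the bottom.

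All 6 arrays lay below 0 for 10 of the 25 genes, beside 30.0% of all features, and above 0 for 3 (Ube2j1, Ube2j2 and Ube2n), beside 12.3%. Among the 10 were Ube2a, Ube2d2a, Ube2d3, Ube2e1, Ube2f, Ube2k, Ube2l3, Ube2q1 and Ube2s. Pool 1 had the sign of the mean of pools 2 and 3 in 23 of the 25 genes. It holds the mice of both pools, so that count is no independent repeat, and it was not set beside all features. For 4 dim genes among those called the ratio was over 1.5 times larger with the scanner's processed signals, at -1.04 for Ube2a, -1.25 for Ube2d2a, -2.09 for Ube2e1 and 0.84 for Ube2n. The ratio of Ube2j1 was also over 1.5 times larger there, at 2.15 against 1.41.

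The E2 enzymes of protein disposal at the endoplasmic reticulum (ERAD) were led by Ube2j1, a membrane-anchored enzyme that works with the ligase Syvn1 on misfolded secretory proteins. Its log2 ratios for FR in Cy5 and FR in Cy3 were 1.28 and 1.41 in pool 1, 1.45 and 1.1 in pool 2, and 1.61 and 1.46 in pool 3. Every array was high, and pool 3 lay above pool 2 in both dyes. The mean over pools 2 and 3 was 1.41 ± 0.18 (SD, n = 2), a 2.65-fold higher level in FR (limma adjusted p = 9.92e-18, or 0.00346 with the prior of 3 pools). Its normalized log2 signal went from 7.46 in control to 8.74 in FR in pool 2 and from 7.25 to 8.79 in pool 3, so the FR signals lay more than 1 log2 unit above both control signals. With the scanner's processed signals the log2 ratio of Ube2j1 was 2.15, and with the authors' deposited table, turned and centred, it was 2.10, so its direction and call held and its size did not. The gene's other probe was too dim to test.

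Of the other ERAD enzymes, Ube2j2, the second membrane-anchored member, had a mean of 0.30 (adjusted p = 0.149 by limma) with every array above 0. The 2 other tested probes of Ube2j2 lay at -0.09 and 0.02 with arrays on both sides of 0, so no direction is given for it. Ube2g1, a builder of chains that mark proteins for degradation, had -0.17 (adjusted p = 0.349 by limma), and Ube2g2 was not tested. The promoter of Ube2j1, the E2 gene with the highest ratio, is shown because it held a match to the element known from promoters of the unfolded protein response. The 250 bases before the annotated start (RefSeq, GRCm38.p6, chr4:33031130-33031379, plus strand) are printed 5′ to 3′, with the match in capitals.
Ube2j1: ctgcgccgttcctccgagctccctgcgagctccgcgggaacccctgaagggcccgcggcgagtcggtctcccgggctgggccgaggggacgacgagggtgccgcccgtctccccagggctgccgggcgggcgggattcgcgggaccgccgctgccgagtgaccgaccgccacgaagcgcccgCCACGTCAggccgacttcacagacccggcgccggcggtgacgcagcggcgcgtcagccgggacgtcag
The motif searched, TGACGTGG on either strand, lay on the reverse strand 68 to 61 bases before the start. It was present in 0.563% of the 32851 promoter windows of this length. Of the 33 genes 26 had a window that was searched, among which Ube2j1 was the 1 that held it (a gene with several annotated starts counts if any of its windows matched). Windows on 1 chromosome were left out of the family search, though they count among the 32851. The amino acid response element TGATGNAA was found in none of the 26 and in 3.45% of all windows. A match of letters is a description and no site of binding.

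Beside Ube2j1, 4 of 11 tested ERAD ligases and partners were lower and 1 was higher, or 3 and 1 with the prior of 3 pools. Among all features 24.5% were lower and 3.74% higher, or 15.5% and 1.53% with that prior. Syvn1, the partner ligase of Ube2j1, was lower at -1.89 ± 0.42 (adjusted p = 8.96e-33 by limma), with -2.19 in pool 2 and -1.60 in pool 3. Herpud1, a stress-induced scaffold of the complex, was lower at -0.98 ± 0.24, and the channel proteins Derl1 and Derl2 were lower at -0.80 ± 0.15 and -0.53 ± 0.29.

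**Figure D2:**
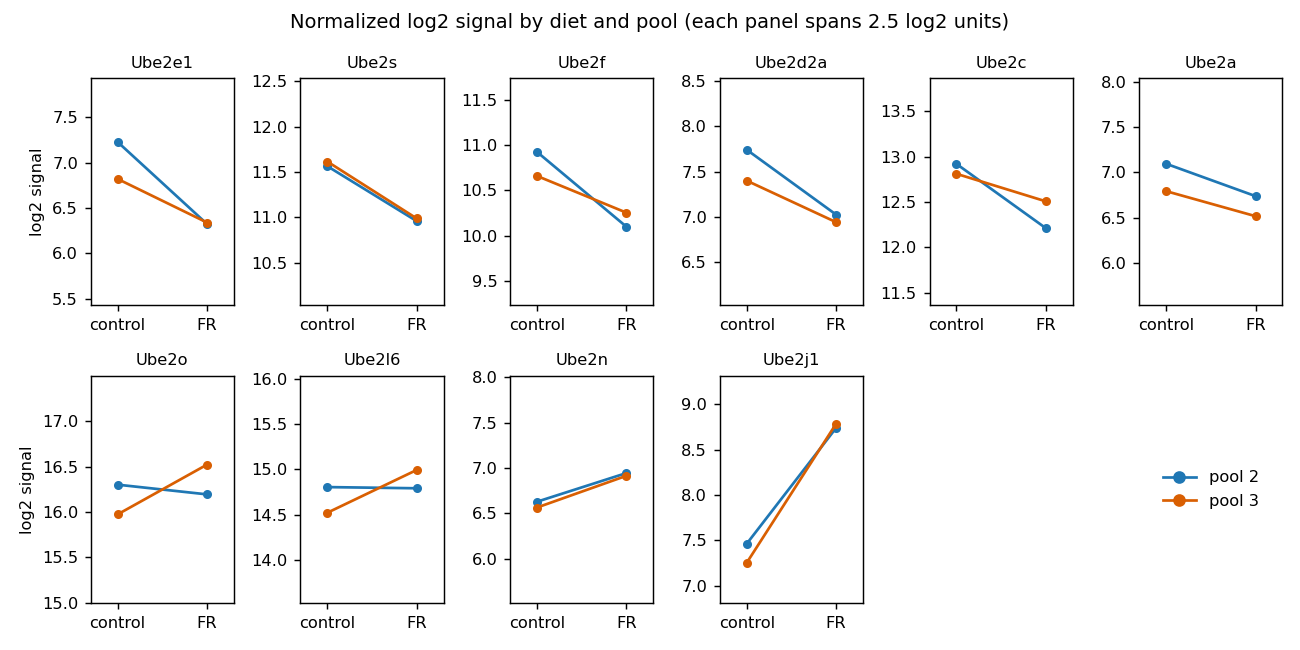
The normalized log2 signal (vertical axis, each panel spanning the same number of log2 units) is plotted for control and FR in pools 2 and 3, for 8 E2 genes that passed and for Ube2o and Ube2l6. The lines of Ube2j1 rise in both pools, those of the 6 lower genes shown fall in both, and those of Ube2o and Ube2l6 run in different directions in the 2 pools.

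NEDD8, the modifier that switches on cullin ligases, is carried by Ube2f and Ube2m. The log2 ratios of Ube2f for FR in Cy5 and FR in Cy3 were -0.54 and -0.74 in pool 1, -0.75 and -0.90 in pool 2, and -0.49 and -0.32 in pool 3. All were below 0, with pool 2 lower than pool 3 in both dyes. The mean was -0.61 ± 0.30, with control 1.53-fold above FR (limma adjusted p = 0.000151), while a second probe at -0.36 did not pass (adjusted p = 0.0677 over all probes). Ube2m, which serves most cullins, did not pass at 0.12 ± 0.47 (adjusted p = 0.615 by limma). It had -0.22 in pool 2 and 0.45 in pool 3, and its arrays ran from -0.24 to 0.90. Nedd8 itself was higher at 0.60 ± 0.55 (adjusted p = 0.000211, or 0.0999 with the prior of 3 pools). In the core of the cullin-RING ligases 5 of 9 tested genes were lower, beside 24.5% of all features. Furthest were the RING subunit Rbx1 (-1.01 ± 0.18), the NEDD8 ligase Dcun1d1 (-0.66 ± 0.07) and the cullin Cul4b (-0.61 ± 0.08).

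Both E2 enzymes of the anaphase-promoting complex (APC/C), the ligase that ends mitosis, were lower in FR. Ube2c starts the chains, and its log2 ratios for FR in Cy5 and FR in Cy3 were -0.52 and -0.55 in pool 1, -0.78 and -0.64 in pool 2, and -0.67 and 0.06 in pool 3. The pool 3 array with FR in Cy3 was the one above 0. The mean was -0.51 ± 0.29 (limma adjusted p = 0.00567, or 0.0904 with the prior of 3 pools), with control 1.42-fold above FR. On the arrays with FR in Cy3 alone the mean of Ube2c was -0.29 and did not pass (adjusted p = 0.399 by limma).

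Ube2s extends the chains, and its log2 ratios for FR in Cy5 and FR in Cy3 were -0.93 and -0.53 in pool 1, -0.91 and -0.30 in pool 2, and -1.14 and -0.12 in pool 3. All were below 0, and the Cy5 value was lower than the Cy3 value in every pool. The mean was -0.62 ± 0.02 (limma adjusted p = 0.00018), with control 1.53-fold above FR. It was -1.03 on the arrays with FR in Cy5 and -0.21 with FR in Cy3, where it did not pass (adjusted p = 0.453 by limma), so the small SD between pools leaves out a wide gap between dyes. Of 12 tested APC/C subunits and coactivators, 3 were lower (Anapc1 at -0.56 ± 0.47, Anapc4 at -0.46 ± 0.38 and Fzr1 at -0.45 ± 0.33), and each of the 3 missed the threshold with the prior of 3 pools. Among all features 24.5% were lower and 3.74% higher, so the APC/C count lay near the background. Of 11 tested markers of proliferating cells, 4 were higher and 3 lower (summed signal 4424 to 5267 in control and 3169 to 3473 in FR), with Nusap1 at -1.95 ± 0.19 and Ccnb2 at 1.03 ± 0.04. Their part in the values of Ube2c and Ube2s was not tested.

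The promoter of Ube2c is shown because it is rich in elements known from promoters of mitotic genes, CCAAT boxes and the cell cycle homology element TTTGAA. The 250 bases before the annotated start (RefSeq, GRCm38.p6, chr2:164769679-164769928, plus strand) are printed 5′ to 3′, with matches on either strand in capitals.
Ube2c: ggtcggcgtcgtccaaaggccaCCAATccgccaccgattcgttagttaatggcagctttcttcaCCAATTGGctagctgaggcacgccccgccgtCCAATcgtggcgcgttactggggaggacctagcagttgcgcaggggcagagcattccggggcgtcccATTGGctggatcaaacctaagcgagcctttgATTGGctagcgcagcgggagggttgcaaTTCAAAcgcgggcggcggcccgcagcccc
It held 6 matches to CCAAT, 2 of which overlap on opposite strands, and 1 match to TTTGAA on the reverse strand 29 to 24 bases before the start. CCAAT was found in 33.8% of all windows and in 7 of the 26 E2 genes (Ube2c, Ube2d3, Ube2e1, Ube2f, Ube2l3, Ube2t and Ube2u). TTTGAA was found in 16% of all windows and in 3 of the 26 (Ube2c, Ube2f and Ube2z). Ube2s held neither within its window, and the part of these elements in the ratios of Ube2c and Ube2s was not tested.

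Among the broadly acting E2 enzymes, which serve many ligases, Ube2e1 and Ube2d2a were lower. The log2 ratios of Ube2e1 for FR in Cy5 and FR in Cy3 were -0.50 and -1.08 in pool 1, -0.74 and -1.07 in pool 2, and -0.14 and -0.82 in pool 3. All were below 0, with the Cy3 value the lower in each pool. The mean was -0.69 ± 0.30 (limma adjusted p = 3.54e-08), and it did not pass when pool 3 was taken from its Cy5 array only (adjusted p = 0.0586 by limma). Its FR signal was above background on 0 of 4 arrays and control on all 4, so the size of the difference is uncertain. With FR set at the bound described below, control was 1.54-fold above FR. The log2 ratio was -0.44 without background subtraction and -2.09 with the scanner's processed signals.

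The log2 ratios of Ube2d2a for FR in Cy5 and FR in Cy3 were -0.87 and -0.82 in pool 1, -0.86 and -0.57 in pool 2, and -0.63 and -0.29 in pool 3. All were below 0, and pool 3 was the nearest to 0 in each dye. The mean was -0.59 ± 0.18 (limma adjusted p = 0.000495), and it did not pass on the arrays with FR in Cy3 alone (adjusted p = 0.0778 by limma). A second probe of Ube2d2a was also lower at -0.48, and the remaining one lay at -0.02 and did not pass. Their relatives Ube2d3 (-0.21, adjusted p = 0.323 by limma) and Ube2e3 (0.05, adjusted p = 0.835 by limma) did not pass. Ube2d1 and Ube2e2 were too dim to test.

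Among the E2 enzymes of DNA damage tolerance and signalling, Ube2a, one of 2 RAD6 proteins that mark histones and the replication clamp PCNA, was lower at -0.32 ± 0.06 (limma adjusted p = 0.0391, or 0.123 with the prior of 3 pools), with arrays from -0.54 to -0.15. Ube2b, the other RAD6 protein, had 0.23 ± 0.30 (adjusted p = 0.42 by limma), and its 4 probes disagreed. The 3 brightest lay at 0.23 to 0.30 and did not pass, while the dimmest lay at -0.95 ± 0.27 and did (adjusted p = 1.85e-08 over all probes), so no direction is given for Ube2b. Ube2n, which builds signalling chains that do not lead to degradation, was higher at 0.33 ± 0.02 (limma adjusted p = 0.0248), with arrays from 0.10 to 0.47. It did not pass under 8 of the 17 other settings tried for it (adjusted p = 0.1 with the prior of 3 pools), and its 2 other probes were too dim to test. Its inactive partner Ube2v1 had -0.13 (adjusted p = 0.588 by limma), and Ube2v2 was not tested. Of 9 tested partner ligases of these enzymes, 3 were lower, beside 24.5% of all features. They were Birc2 (-1.50 ± 0.02) and Birc3 (-0.87 ± 0.45), which restrain cell death, and Traf3 (-0.67 ± 0.40).

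Ube2l6 carries ISG15, a modifier induced by interferon. Its log2 ratios for FR in Cy5 and FR in Cy3 were 0.50 and -0.16 in pool 1, 0.12 and -0.15 in pool 2, and 0.20 and 0.74 in pool 3. The arrays lay on both sides of 0. The mean was 0.23 ± 0.34 (limma adjusted p = 0.428). Its 95% interval was -0.14 to 0.60 with a spread shared across features and -0.25 to 0.70 with the prior of 3 pools. Other genes of that pathway were lower, with 3 of 5 tested: Isg15 at -2.12 ± 0.29 (adjusted p = 9.63e-46 by limma), its E1 enzyme Uba7 at -1.27 ± 0.02 (7.93e-17) and the ligase Trim25 at -0.75 ± 0.16 (6.91e-08). Isg15 lay at -2.07, -2.33 and -1.92 and Uba7 at -1.31, -1.28 and -1.26 in pools 1, 2 and 3, so both were low in every pool. Of 16 tested genes of the type I interferon response, 11 were lower (summed signal 20242 to 28129 in control and 11665 to 13656 in FR), beside 24.5% of all features. Ifi27l2a was furthest at -2.51 ± 0.16, and the part of these genes in the values of Ube2l6 was not tested.

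The promoters of Ube2l6 and Isg15 are set side by side because the 2 genes of this pathway had different ratios. Each is the 250 bases before the annotated start (RefSeq, GRCm38.p6), Ube2l6 at chr2:84798578-84798827 on the plus strand and Isg15 at chr4:156200819-156201068 on the minus strand. They are printed 5′ to 3′, with matches to GAAANNGAA, a repeat known from elements bound by interferon regulatory factors, in capitals.
Ube2l6: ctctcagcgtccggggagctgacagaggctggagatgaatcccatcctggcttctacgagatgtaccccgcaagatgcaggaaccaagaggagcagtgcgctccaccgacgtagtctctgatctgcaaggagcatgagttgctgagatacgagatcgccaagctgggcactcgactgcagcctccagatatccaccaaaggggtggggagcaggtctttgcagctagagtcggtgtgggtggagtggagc
Isg15: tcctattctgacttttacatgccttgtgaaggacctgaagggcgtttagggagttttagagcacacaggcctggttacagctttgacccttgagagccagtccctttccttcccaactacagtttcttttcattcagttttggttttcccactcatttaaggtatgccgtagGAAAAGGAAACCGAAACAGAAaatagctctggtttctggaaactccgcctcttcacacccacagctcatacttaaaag
Isg15 held 3 overlapping matches 78 to 58 bases before its start, and Ube2l6 none in this window. The matches are a description of letters, and their part in the ratios of the 2 genes was not tested. On either strand the repeat was found in 7.13% of all windows, in 8 of the 16 interferon genes with a window and in 1 of the 26 E2 genes, Ube2d3. These 16 are not the same as the 16 tested above: Oas1a and Stat2, among the 8, were not tested.

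**Figure D3:**
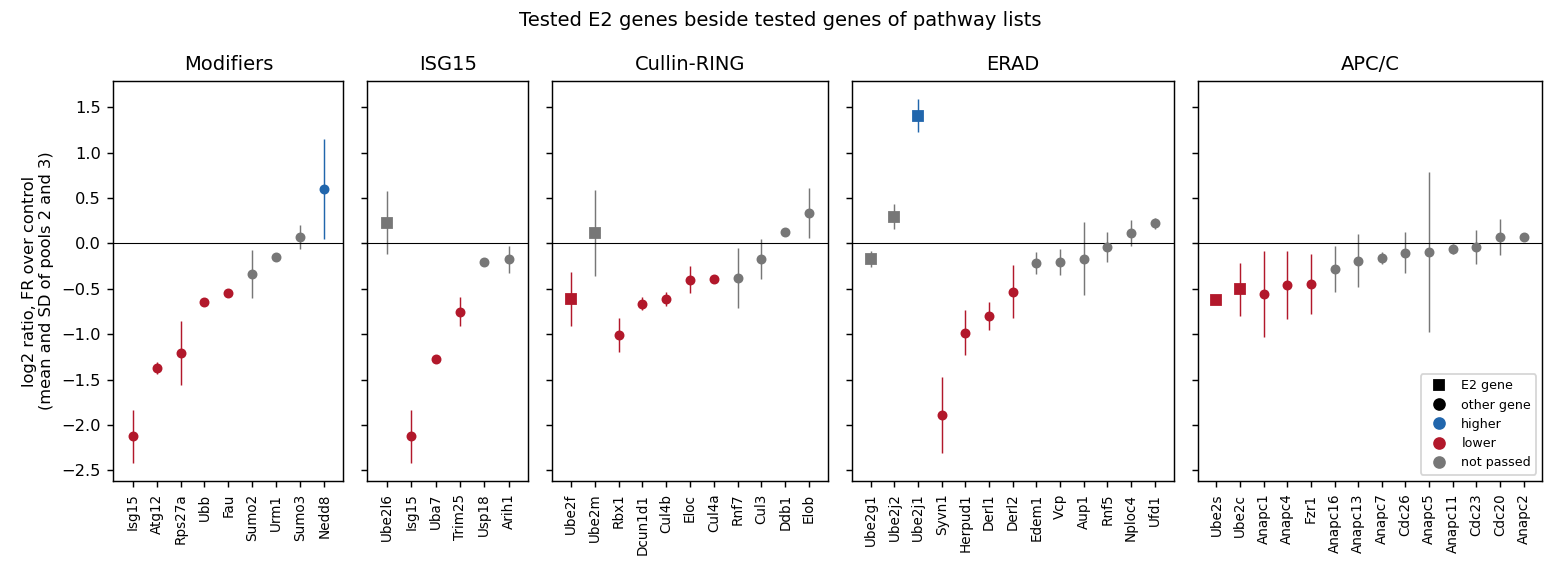
The log2 ratio of FR over control (vertical axis, mean and SD of pools 2 and 3) is plotted for tested E2 genes (squares) beside tested genes (circles) of pathway lists, coloured by call. In the ISG15 panel Ube2l6 lies above 0 with 3 lower genes at -0.75 to -2.12, and in the ERAD panel Ube2j1 lies at 1.41 with Syvn1 at -1.89. Genes not reported here are left out of the panels.

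Ube2o and Ube2h are E2 enzymes of red cell maturation, Ube2o clearing ribosomes and unpaired globin and Ube2h working with the CTLH ligase. The log2 ratios of Ube2o for FR in Cy5 and FR in Cy3 were 0.48 and 0.44 in pool 1, -0.05 and -0.17 in pool 2, and 0.48 and 0.62 in pool 3. Pool 2 was low and pools 1 and 3 were high, without overlap and in both dyes. The mean was 0.22 ± 0.46 (limma adjusted p = 0.523), and a second probe gave 0.16 ± 0.37. The 95% interval of the mean was -0.21 to 0.65 with the spread shared across features and -0.35 to 0.80 with the prior of 3 pools. Ube2h had -0.09 ± 0.52 (adjusted p = 0.732 by limma), with -0.45 in pool 2 and 0.28 in pool 3. Of 5 tested CTLH subunits 1 passed, Maea at -0.63 ± 0.26, lower in FR. The erythroid list's median log2 ratio was -0.15 in pool 2 and 0.25 in pool 3. Its part in the values of Ube2o and Ube2h was not tested.

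Pool 3 lay above pool 2 in 21 of the 25 E2 genes (84%), beside 54% of all features. By dye it was 22 of 25 with FR in Cy5 and 23 of 25 with FR in Cy3, beside 50.9% and 56.4% of features. The family's median log2 ratio was -0.29 in pool 2 and 0.08 in pool 3, with -0.20 in pool 1. Most of the other ubiquitin pathway lists also had a higher median in pool 3. It went from -0.50 to -0.30 for the cullin-RING core and from -0.33 to -0.09 for the APC/C. The ubiquitin-like modifiers (-0.34 to -0.54) and the partner ligases of Ube2a, Ube2b and Ube2n (-0.11 to -0.21) went the other way. The difference between pools was as large as many of the ratios, and the widest SD among the tested E2 genes was that of Ube2h, 0.52.

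The remaining tested members did not pass. They were Ube2k (-0.33, adjusted p = 0.0739 by limma), another builder of degradation chains, and Ube2r2 (-0.16, 0.522), the partner of SCF ligases. Ube2l3, which serves the HECT and RBR ligases, had -0.20 (adjusted p = 0.391 by limma). Ube2q1 (-0.18, with FR above background on 0 of 4 arrays), Ube2q2 (0.13) and Ube2z (0.21) complete the 25. Ube2d1, Ube2e2, Ube2g2, Ube2t, Ube2u, Ube2v2, Ube2w and Ube2cbp were not well above background on all 4 arrays in either group.

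Of the 75 probes of the family, 49 passed the filter on dim signals, and 13 genes had several such probes. Of all 13258 probes on the array that passed the filter, in the family or not, 4.01% were higher and 25.5% lower. For 3 genes whose brightest probe did not pass, another probe was lower: Ube2b (-0.95), Ube2d3 (-0.48) and Ube2k (-0.41). No gene of the family had probes called in opposite directions.

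**Figure D4:**
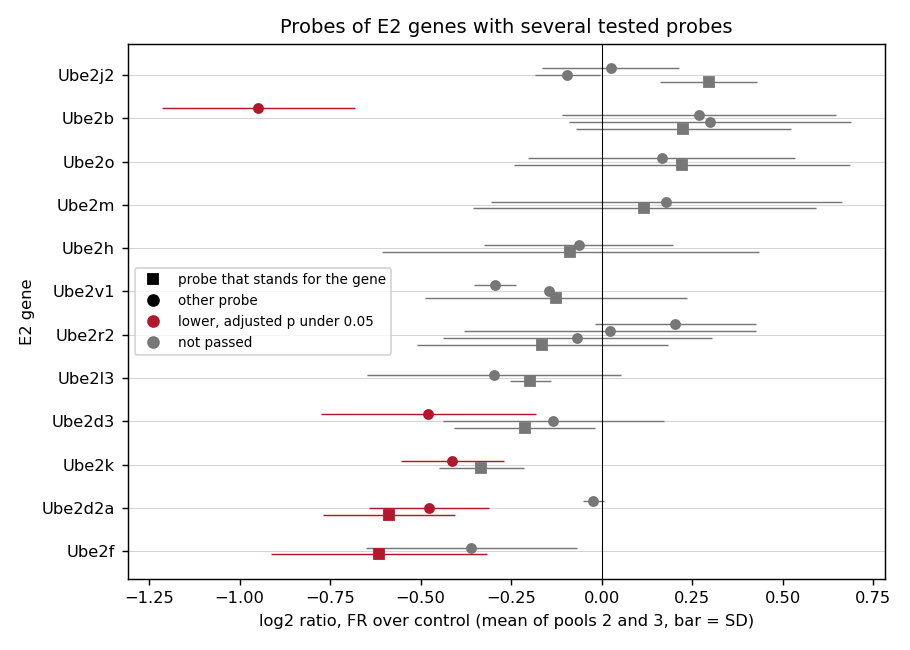
The mean log2 ratio of FR over control with its SD over pools 2 and 3 (horizontal axis) is plotted for each tested probe of 12 E2 genes with several, squares marking the probe that stands for the gene. For Ube2b 1 probe lies at -0.95 while the gene's other 3 lie above 0.

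Across the other genes of the ubiquitin pathway, in 13 lists, 5 of 116 tested genes were higher (4.31%) and 41 lower (35.3%), with a median of -0.18, beside 3.25% and 28.2% of named genes. Of 4 tested genes that encode ubiquitin, 2 were higher and 2 lower, so the list had no common direction. The lower ones were Rps27a (-1.21 ± 0.35) and Ubb (-0.65 ± 0.05). Rps27a was the 1 of the 4 that also passed with the prior of 3 pools (adjusted p = 0.00675 by the moderated t test with that prior). Among the ubiquitin-like modifiers, Isg15, Atg12 (-1.37 ± 0.07) and Fau (-0.55 ± 0.02) were lower and Nedd8 was higher. Among the E1 enzymes Uba7 was lower, and of 4 genes with an E2 fold and another name, Ufc1 (-0.49 ± 0.08), which carries UFM1, was lower. Of 5 tested SUMO ligases and proteases, 1 passed, the ligase Pias1 at -0.41 ± 0.18. Its FR signal was above background on 0 of 4 arrays, and with FR set at the bound control was 1.27-fold above FR.

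Of 17 tested HECT and RBR ligases, 4 were lower, led by Ube3a (-0.62 ± 0.21) and Herc4 (-0.62 ± 0.27). Among all features 24.5% were lower, so that count lay near the background. The FR signal of Ube3a was above background on 0 of 4 arrays, and with FR set at the bound control was 1.53-fold above FR. Of the 17, 1 was higher, Trip12 (0.88 ± 0.72), with 0.37 in pool 2 and 1.39 in pool 3. Of 27 tested deubiquitinases, which remove ubiquitin, 10 were lower, beside 24.5% of all features. They were led by Otud5 (-0.72 ± 0.13), Brcc3 (-0.51 ± 0.36) and Usp15 (-0.49 ± 0.40). With the prior of 3 pools 21 of the 46 pathway calls held, among them 2 of the 10 deubiquitinases. Of the genes named from these lists, besides Nedd8 and the 3 APC/C genes, Brcc3 (adjusted p = 0.0995 by the moderated t test with that prior), Usp15 (0.116), Trip12 (0.0556), Pias1 (0.0515), Derl2 (0.0769), Ubb (0.0905), Fau (0.0965) and Ufc1 (0.0632) missed the threshold there. Among the genes named here that were tested, FR was above background on 1 of 4 arrays for Ube2g1, Anapc4 and Trim25, on 2 for Herpud1, Anapc1, Cul4b, Traf3 and Herc4, and on 3 for Ube2a, Ube2d2a, Ube2n, Ube2q2, Birc3, Maea, Brcc3 and Ifi27l2a.

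**Figure D5:**
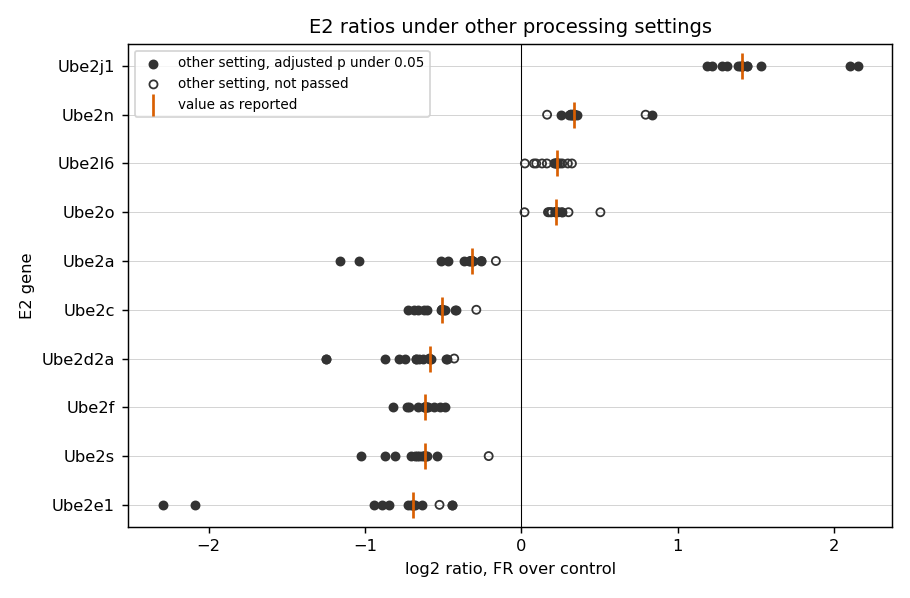
The log2 ratio of FR over control (horizontal axis) is plotted for 10 E2 genes under every other processing setting, filled where it passed and open where it did not, with a bar at the value as reported. Ube2j1 passed under all 18 settings and no gene changed sign.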

How the data were processed

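Whole blood RNA of control and FR mice was measured on 6 two-colour Agilent arrays. The scanner files as deposited give linear intensity values for each spot in red and green. Per the submitters' processing notes they come from Agilent Feature Extraction (version 11.0.1.1). The series table that the authors deposited holds log10 ratios of red over green processed signal, uncentred and with swapped arrays not turned, as a comparison with the scanner values showed. The medians of its columns, Cy5 arrays first, were -0.00938 and -0.0277 (pool 1), 0.0441 and 0.00763 (pool 2), and 0.052 and -0.0221 (pool 3). It served as an alternative.

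Median signals were corrected with normexp (offset 50) and normalized by loess within arrays. Mean signals had been planned, but the columns used hold medians. Control spots and outlier spots were left out, spots of a probe were averaged, every ratio was set as FR over control from the dyes in the labels, and the 2 arrays of a pool were averaged. Of 41174 probes, 23374 were named by accession through RefSeq (GRCm38.p6, names only). A probe was tested where 1 of the groups passed the scanner's call of well above background on each of the 4 arrays of pools 2 and 3. The brightest such probe stood for a gene, which left 11499 features.

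The two-sided test was limma's (version 3.58.1, R 4.3.3, lmFit and eBayes with a trend) and set pools 2 and 3 against 0. With 1 residual degree of freedom the fit gave an infinite prior, that is, a spread shared across features, so an alternative used the 5.41 prior degrees of freedom of the 3-pool fit. That alternative used a moderated t statistic computed from limma's fitted values with this prior held fixed. Pool numbers pair FR with control by the array they share, not by animal. A bound set dim FR signals, per channel after loess and Aquantile, at no less than the lowest signal well above background on each array. The fold given with it is a mean over pools 2 and 3 without an interval, so smaller differences remain possible. Summed signals are linear sums over a list's tested genes per pool and dye. Values on every array are given for E2 genes past adjusted p 0.05 with an absolute ratio of at least 0.5 and for Ube2j1, Ube2l6, Ube2o and Ube2c, and at most 3 passing genes are named per pathway list. Derl2 was named outside this rule after its value was seen. Some genes, among them 1 lower E2 gene, are not reported here. The members and lists were chosen with earlier results of these data known. Promoter sequences are from RefSeq, 250 bases before each annotated start.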

Additional observations from a re-analysis of the deposited data

How the results depend on the processing

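No E2 gene of the 11 followed changed sign under any setting tried, and Ube2j1 passed under all 18. Fitting the diets as separate channels, without the replicate block that the shared array gives, left 116 features higher and 984 lower, 1 E2 gene in each direction and 15 called genes on the pathway lists. The prior of 3 pools gave 176 higher and 1786 lower, 1 E2 gene higher, and 21 pathway genes. Requiring both groups above background gave 1312 lower features, 1 E2 gene higher and 4 lower, and 28 pathway genes, with fewer genes tested. Median centring, which moved the median of all features to -0.18, gave 181 higher features, with 1 E2 gene higher and 11 lower. All 3 pools as replicates gave 923 higher features, although pool 1 holds the mice of pools 2 and 3. The 6 arrays with slide as a block gave 3547 higher and 4448 lower features, 8 E2 genes higher and 14 lower, and 97 pathway genes. Ube2l6 and Ube2o passed there. That fit had no block for pool, so dye-swap arrays and the shared mice of pool 1 counted as replicates. Its calls, those of Ube2l6 and Ube2o among them, rest on mice counted more than once. FR in Cy5 alone gave 1004 higher features, and FR in Cy3 alone 1 E2 gene higher and 4 lower. The series table, the variance model without trend and, added after seeing the data, pool 3 from its Cy5 array only each gave 1 E2 gene higher. Leaving out pool 2 or pool 3, with pool 1 taken in its place although it holds the same mice as the pool kept, gave 476 to 1723 higher features, 1 to 3 E2 genes higher, 7 to 15 lower, and 39 to 73 called pathway genes, the higher counts without pool 3. Signal over background limits 8 of the 33 genes, which could not be tested.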
